A study of Mus musculus with 28 samples.

Results

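A set of 6 genes of zinc handling was followed: the metallothioneins Mt1 and Mt2, the metal-responsive transcription factor Mtf1, the zinc exporter Slc30a1 and the zinc importers Slc39a6 and Slc39a10. They are 6 of the 25124 genes in the deposited table. The set was chosen by gene symbol for its known roles, and selected on earlier results of these data, in which Mt1 stood at the high end of the response to an anti-CD3 antibody in colonised mice and at the low end of the germ-free against colonised comparison after that antibody. For those 2 comparisons, and for the difference between the responses to the antibody, the values of the 6 genes are therefore a description, with no test. The response in germ-free mice, the comparison of control mice and the comparison of the sexes were tested. The first 2 share libraries with the comparisons on which Mt1 was chosen, so for Mt1 these tests are not independent of the choice.

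The RNA came from live CD45+ CD90.2+ TCRb+ CD4+ T cells sorted out of mouse small-intestinal lamina propria. All 28 libraries were from mice with the T-bet-ZsGreen genotype, a fluorescent reporter of the transcription factor T-bet. Some mice carried a normal microbiota free of specific pathogens (SPF), and others had none (germ-free, GF). Each was given aCD3, an antibody that binds CD3 on T cells, or a control antibody of matching isotype. Isotype controls numbered 6 in SPF (3 of each sex) and 10 in GF (5 of each sex), and there were 6 aCD3 libraries in SPF (3 of each sex) and 6 in GF (1 from a female and 5 from males). Libraries are named here by group, sex letter and replicate number, as in M3. Nothing in the labels says whether each library is 1 animal or a pool; age, dose and the interval before sampling were not used here.

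Values are TPM, a relative transcript abundance; these divide a library's signal by gene length and express it as a share of the total. The length used in 99.24% of rows is the whole genomic span, introns included, so TPM values can be compared between samples for 1 gene but not well between a compact gene such as Mt1 and a long one such as Mtf1. Whole counts recovered from the TPM summed to between 6765528 and 17860598 per library. The recovered counts of many genes were even numbers, Mt2 in 28 of 28 libraries and Mt1 in 25 of 28, so independent reads may be fewer than the counts. The cause was not tested. Summed TPM of 7 T cell markers ran from 1706 to 2230 in all 28 libraries, and no T cell marker was at 0 in a whole group. Colonisation and sample numbering cannot be told apart: the column numbers of the SPF libraries are 1 to 12, and those of the GF libraries 25 to 33 and 48 to 54.

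Metallothioneins are small cysteine-rich proteins that bind zinc and copper and buffer their free pools in the cell. The zinc-finger factor MTF1, encoded by Mtf1, senses free zinc and binds metal response elements in the promoters of metallothionein genes and of Slc30a1, which encodes ZnT1, the exporter that carries zinc out across the plasma membrane. ZIP6 and ZIP10, encoded by Slc39a6 and Slc39a10, bring zinc into the cytosol. In T cells, activation through the T cell receptor is known to be accompanied by zinc entry and zinc signals.

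Mt2 and Mt1 are neighbours on mouse chromosome 8 and share a direction of transcription. In the build mm10, the table places Mt2 at 94172618 to 94173567 and Mt1 at 94179089 to 94180327, both on the plus strand, with 6471 bases between the starts. Because the genes are paralogs, their annotated protein-coding transcripts were compared, and they shared 0 of the stretches of 31 bases that either holds, so long reads can tell them apart. The 250 bases before the RefSeq start are shown for these genes and for Slc30a1, a reported MTF1 target that was lower in the libraries with the most Mt1 and Mt2. They are printed 5′ to 3′ on the plus strand of GRCm38.p6, from RefSeq, with matches to the metal response element core in capitals. The core searched was TGCACNC or TGCGCNC on both strands. A match on the minus strand reads GNGTGCA or GNGCGCA as printed. The windows are chr8:94172368-94172617 for Mt2, chr8:94178839-94179088 for Mt1 and chr1:191906531-191906780 for Slc30a1.
Mt2: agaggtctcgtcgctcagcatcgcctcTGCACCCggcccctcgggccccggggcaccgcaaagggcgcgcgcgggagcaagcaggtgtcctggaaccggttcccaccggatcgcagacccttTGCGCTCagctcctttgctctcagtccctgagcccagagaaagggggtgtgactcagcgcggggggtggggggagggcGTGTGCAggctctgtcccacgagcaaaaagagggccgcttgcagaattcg
Mt1: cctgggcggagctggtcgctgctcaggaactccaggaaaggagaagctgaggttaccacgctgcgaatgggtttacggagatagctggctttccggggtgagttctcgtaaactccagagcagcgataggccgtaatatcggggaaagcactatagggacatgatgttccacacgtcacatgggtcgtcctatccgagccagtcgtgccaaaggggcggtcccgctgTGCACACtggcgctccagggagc
Slc30a1: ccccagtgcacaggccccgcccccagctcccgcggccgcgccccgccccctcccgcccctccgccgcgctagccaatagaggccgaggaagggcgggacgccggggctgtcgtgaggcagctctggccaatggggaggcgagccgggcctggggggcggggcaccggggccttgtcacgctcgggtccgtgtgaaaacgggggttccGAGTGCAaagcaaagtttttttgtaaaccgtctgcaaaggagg

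The Mt2 window held 3 matches, the Mt1 window 1 and the Slc30a1 window 1. Of 32851 windows of the same length, 21.4% held at least 1 match and 1.26% held at least 3. The windows of Mtf1 and Slc39a10 held 0, which says only that these letters are not in those windows. Promoters were matched for 5 of the 6 genes. The RefSeq starts of both metallothionein genes lie upstream of other annotated starts. In the GENCODE annotation Mt1 transcripts begin at 94179082 and 94179211, and the 129 bases between these starts held 4 further matches. Mt2 transcripts begin at 94172664 and 94172860, and the 196 bases between held 3. A match of letters is a description and not evidence of binding.

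With a flora, aCD3 went with far more metallothionein transcript. Mt1 in the SPF isotype libraries F1, F2, F3, M1, M2 and M3 was 8.39, 0, 5.05, 2.60, 2.84 and 0 TPM. In the SPF aCD3 libraries of the same names it was 101, 91.7, 59.7, 72.3, 95.9 and 100.0 TPM. Every SPF aCD3 library was above every SPF isotype library, and the lowest of them was several times the highest control. The means were 86.8 ± 16.9 (SD, n = 6) and 3.15 ± 3.20 TPM (SD, n = 6), a ratio of 27.6. On the log2(TPM + 1) scale, which understates changes of low genes, the fitted difference was 4.83 with a standard error of 0.55. The control level rested on 0 to 18 recovered counts per library, against 164 to 220 after aCD3. For the 2 control libraries at 0, 3 counts would have been 1.69 TPM in F2 and 1.31 TPM in M3, a limit that covers counting error only and would be higher in proportion if each read was counted more than once, which the even counts leave untested.

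Mt2 gave the same picture at a lower level. It was 1.22, 0, 1.10, 1.13, 1.24 and 3.43 TPM in SPF isotype F1 to F3 and M1 to M3, and 38.9, 53.3, 27.9, 20.7, 36.3 and 50.1 TPM in the SPF aCD3 libraries. The groups did not overlap, and only M3 among the controls stood above the others. The ratio of the means, 37.9 ± 12.5 against 1.35 ± 1.12 TPM (SD, n = 6 each), was 28.02, and the fitted log2 difference was 4.11 with a standard error of 0.66. Of the 12182 genes tested, 41.9% did not overlap between these groups, and 64.8% passed limma's test at an adjusted p of 0.05 (14.2% upwards and 50.7% downwards), so non-overlap was common here and nothing is read from it for the chosen genes.

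Mt1 exceeded Mt2 in most libraries where the ratio could be formed. Among 11 libraries with at least 10 recovered Mt2 counts, the Mt1 to Mt2 ratio of TPM, each per genomic span, was above 1 in 10. In SPF aCD3 it ran from 1.72 to 3.49. In the GF aCD3 libraries M1, M2 and M5 it was 1.41, 1.76 and 1.29, and in GF isotype F2 and F3 it was 1.49 and 0.767.

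Without a flora, neither the Mt1 nor the Mt2 difference after aCD3 passed the test. The GF aCD3 libraries were part of a comparison on which Mt1 was chosen as low, so its result here is not independent of the choice. Mt1 in the GF aCD3 libraries F1 and M1 to M5 was 5.18, 13.0, 17.7, 11.7, 2.46 and 14.6 TPM, a mean of 10.8 ± 5.81 (SD, n = 6). In GF isotype, the lowest, median and highest of 10 libraries were 1.46, 3.85 and 31.2 TPM, a mean of 6.42 ± 8.84 (SD). The highest control, F2, was above every GF aCD3 library, and the other 9 controls were at or below 6.66 TPM. The log2 difference was 0.99 with a standard error of 0.51, and did not pass (limma over all genes, Benjamini-Hochberg adjusted p = 0.161). Without GF isotype F2 it was 1.20, with an adjusted p of 0.0770. Within the sample numbers 25 to 33 the difference was 1.30, and within 48 to 54 it was 1.13.

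Mt2 was 1.35, 9.28, 10.0, 1.86, 1.60 and 11.3 TPM in GF aCD3 F1 and M1 to M5. In GF isotype it was 0 in 7 of 10 libraries, where 3 counts would have been 1.30 to 3.41 TPM, and 2.17, 6.56 and 21.0 TPM in M3, F3 and F2. M1, M2 and M5 were thus well above most controls, and the other 3 treated libraries were close to the level of a few counts. The log2 difference of 1.57, standard error 0.61, missed the threshold (limma adjusted p = 0.0780). It passed without GF aCD3 F1, M3 or M4 (adjusted p = 0.0306, 0.0392 and 0.0393, with differences of 1.95, 1.74 and 1.77) and with the sample-number run in the model (1.73, adjusted p = 0.0407). In the numbers 25 to 33 alone the difference was 2.22, and in 48 to 54 alone 1.99.

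The GF aCD3 libraries were not alike in another gene that responds to T cell activation. Lag3, which encodes an inhibitory receptor of activated T cells, is not one of the 6 genes and was picked after its values were seen. It was 9.59, 498, 452, 17.0, 12.3 and 527 TPM in GF aCD3 F1 and M1 to M5, against 5.41 to 18.5 TPM in GF isotype, 9.496 to 18.5 TPM in SPF isotype and 505 to 825 TPM in SPF aCD3. M1, M2 and M5 were near or within the SPF aCD3 range, and F1, M3 and M4 were within the GF isotype range. Every GF aCD3 mean and difference given here for the 6 genes runs over all 6 libraries, and the part of this division in them was not tested.

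GF isotype F2, the control with the most Mt1 and Mt2, also had the highest summed TPM of 11 epithelial markers among the 28 libraries, 75.6, and the second highest of 4 Paneth cell markers, 71.4. GF isotype M2 had the highest Paneth sum, 321, with 4.63 TPM of Mt1. The part of other cells in the F2 value was not tested. In SPF, where the aCD3 libraries had the most Mt1, the epithelial sum was 5.07 to 12.4 TPM after aCD3 and 7.80 to 24.97 TPM in controls. Of these 11 markers 2, Fabp1 and Alpi, were at 0 in every SPF aCD3 library, and Alpi was also at 0 in 4 of 6 SPF controls. Sums of 6 B and plasma cell markers were 2.51 to 8.77 TPM after aCD3 and 95.7 to 272 TPM in SPF controls. Sums of 6 stromal markers were 0.467 to 2.28 against 4.42 to 42.05 TPM, those of 3 endothelial markers 2.53 to 3.89 against 7.48 to 11.2 TPM and those of 6 erythroid markers 0.716 to 1.28 against 2.29 to 10.2 TPM, also without overlap. The endothelial sums were mostly Pecam1, at means of 3.35 TPM after aCD3 and 9.52 TPM in SPF controls. Mean Cdh5 went the other way, at 0.047 and 0.004 TPM, and Kdr was at 0 in every SPF aCD3 library. Sums of 8 myeloid and 4 Paneth cell markers overlapped. In 2 lists the highest values were those after aCD3: 2 CD8 markers summed to 9.75 to 23.8 TPM after aCD3 and 5.68 to 13.5 TPM in SPF controls, and 6 pancreatic acinar markers to 1.499 to 18.2 and 0.971 to 3.62 TPM, with only SPF aCD3 M1 and M3 above the controls in the acinar sum. The part of other cells in the SPF values was not tested. In bulk RNA, a change in the make-up of the sorted cells and a change in RNA per cell cannot be told apart.

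**Figure D1:**
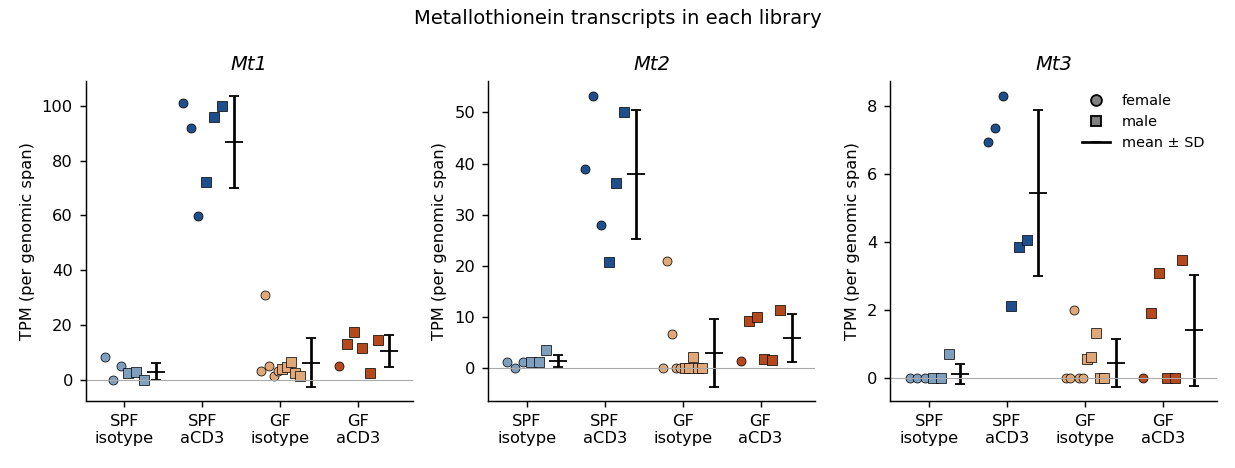
TPM of Mt1, Mt2 and the metallothionein Mt3 in each of the 28 libraries, by group; circles are female and squares male libraries, and the black bar at the right of each group is the mean with its SD. Mt1 was 59.7 TPM or more in every SPF aCD3 library and 31.2 TPM or less in every other library.

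After aCD3, the SPF and GF libraries were separate for both genes. The lowest SPF aCD3 library had 59.7 TPM of Mt1 and the highest GF aCD3 library 17.7 TPM. For Mt2 these were 20.7 and 11.3 TPM. The SPF mean was 8.05 times the GF mean for Mt1 and 6.42 times for Mt2, and the fitted log2 differences, GF minus SPF, were -3.02 (SE 0.57) and -2.74 (SE 0.67). Over all 12182 genes 13.0% did not overlap between these groups and 53.3% passed limma's test, 48.9% higher in GF and 4.46% lower. Set against each other, the aCD3 responses differed by -3.84 (SE 0.75) on the log2 scale for Mt1 and by -2.54 (SE 0.90) for Mt2, GF minus SPF, beside a median gene at 0.20. In this comparison 3.48% of genes passed, 2.44% with a higher response in GF and 1.04% with a lower one. Medians of some marker sums were higher in GF aCD3 than in SPF aCD3. Acinar medians were 27.17 and 2.389 TPM, B and plasma cell 13.84 and 6.042 TPM, and epithelial 10.96 and 7.171 TPM. CD8 and stromal medians were lower in GF aCD3, at 8.573 and 1.024 against 17.12 and 1.902 TPM. The part of other cells between the aCD3 groups was not tested.

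The mean TPM of each of the 3 zinc transporters was lower, not higher, in SPF aCD3 than in SPF isotype. A shift of the whole table has to be kept in view: the median gene moved by -0.35 on the log2 scale in SPF after aCD3, by -0.15 in GF, and by 0.34 between GF aCD3 and SPF aCD3. Scaling the libraries by median of ratios takes this shift out, and turns the split of called genes in SPF from 1726 higher and 6172 lower to 3727 and 3575. In GF it turns the split from 300 higher and 562 lower to 685 and 500, and between the aCD3 groups from 5953 higher in GF and 543 lower to 1927 and 2059. Values after this scaling are given beside the SPF and GF aCD3 differences of the 4 genes below. For list genes they are given only where the gene had passed and was moved by more than 1.5 times. With this scaling Mt1 and Mt2 after aCD3 were at 1.13 and 1.63 in GF.

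Slc30a1 (chromosome 1, 191906781 to 191913247, plus strand), the zinc exporter and a reported MTF1 target, was lower in SPF aCD3, where the metallothioneins were highest. It was 18.8, 28.1, 15.9, 20.2, 23.7 and 22.9 TPM in SPF isotype F1 to F3 and M1 to M3, and 13.5, 12.9, 11.6, 11.7, 10.0 and 9.67 TPM in SPF aCD3. The groups did not overlap, as for 41.9% of all genes. The means were 21.6 ± 4.23 and 11.6 ± 1.54 TPM (SD, n = 6 each), and the log2 difference was -0.83 (SE 0.18), or -0.44 after median of ratios. In GF aCD3 F1 and M1 to M5 it was 22.6, 9.08, 10.4, 19.1, 21.4 and 9.91 TPM, against 19.4 to 26.6 TPM in the 10 GF isotype libraries. M1, M2 and M5 were within or below the SPF aCD3 range, M3 was just below the control range, and F1 and M4 were inside it.

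Slc30a1 was the only one of the 6 genes to pass in GF after aCD3, and narrowly: the log2 difference was -0.56 (SE 0.16, limma adjusted p = 0.0484), with 7.08% of all genes passing, 2.46% upwards and 4.61% downwards. It was -0.40 after median of ratios (adjusted p = 0.0416). The call was lost in 25 of 28 fits that left out 1 library each, with adjusted p up to 0.179, and in the fit of the GF groups alone (adjusted p = 0.249). Within the numbers 25 to 33 the difference was -0.74 and within 48 to 54 it was -0.50, with adjusted p of 0.316 and 0.734.

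Slc39a6 (chromosome 18, 24579881 to 24603817, minus strand), which encodes the importer ZIP6, had the largest difference of the transporters in SPF. SPF isotype F1 to F3 and M1 to M3 had 23.5, 24.4, 19.1, 22.8, 22.1 and 18.4 TPM, and the SPF aCD3 libraries 9.10, 10.3, 10.1, 10.8, 9.82 and 8.81 TPM. The groups did not overlap, as for 41.9% of all genes, and the spread after aCD3 was small. The means were 21.7 ± 2.41 and 9.83 ± 0.764 TPM (SD, n = 6 each), with a log2 difference of -1.06 (SE 0.21), or -0.67 after median of ratios. In GF aCD3, F1 and M1 to M5 had 27.9, 10.7, 11.6, 33.5, 33.4 and 12.3 TPM. The GF controls ran from 25.02 to 29.7 TPM, so M3 and M4 lay above the whole control range, F1 within it, and M1, M2 and M5 at less than 13 TPM. The log2 difference in GF, -0.45 (SE 0.19), did not pass (limma adjusted p = 0.0978), and was -0.29 after median of ratios. It passed without GF aCD3 F1, M3 or M4 (-0.58, -0.60 and -0.60, adjusted p = 0.0358, 0.0152 and 0.0187) and with array weights (-0.70, adjusted p = 0.00565). In the numbers 25 to 33 the difference was -0.77 and in 48 to 54 it was -0.18.

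Read library by library, GF aCD3 M1, M2 and M5 had the lowest Slc39a6 and Slc30a1 of their group and the highest Mt1 and Mt2. Their Slc39a6 was 10.7 to 12.3 TPM, against 8.81 to 10.8 TPM in SPF aCD3, and their Slc30a1 9.08 to 10.4 TPM, against 9.67 to 13.5 TPM. Their Mt1, 13.0 to 17.7 TPM, lay below the 59.7 TPM of the lowest SPF aCD3 library. M3 had 11.7 TPM of Mt1 with 33.5 TPM of Slc39a6. Marker sums divided the libraries in the same way. B and plasma cell markers summed to 6.67 to 8.29 TPM in M1, M2 and M5 and to 19.4 to 97.7 TPM in F1, M3 and M4. In the same order epithelial markers summed to 6.68 to 8.98 and 12.9 to 33.4 TPM. Endothelial markers, mostly Pecam1, summed to 2.92 to 4.18 and 8.18 to 9.16 TPM. Stromal markers summed to 0.501 to 0.873 and 1.18 to 2.87 TPM. CD8 markers went the other way, with 9.59 to 13.0 and 3.47 to 7.56 TPM, and T cell markers were 1736 to 1894 and 1953 to 2102 TPM. Acinar, myeloid, Paneth cell and erythroid sums overlapped between them, and the acinar sum of 474 TPM in M3 was the highest of 28 libraries. The part of other cells in these values was not tested.

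**Figure D2:**
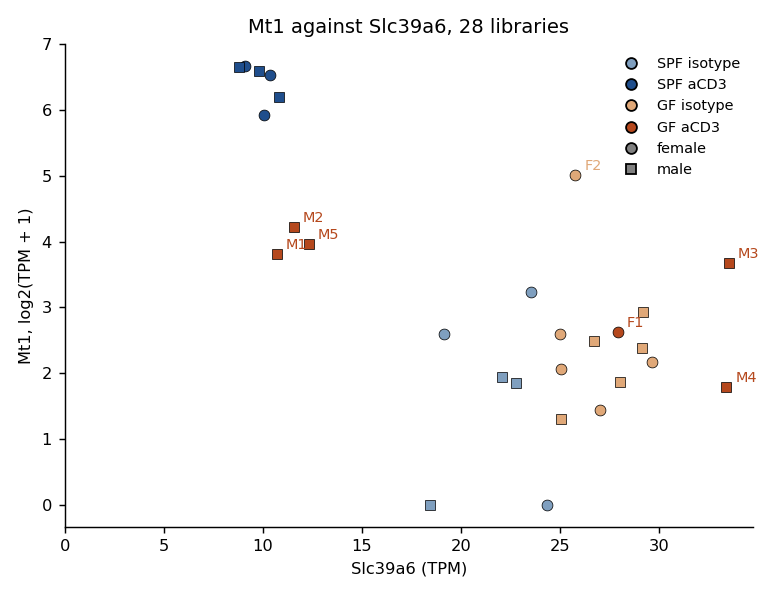
Mt1 as log2(TPM + 1) against Slc39a6 in TPM for the 28 libraries, coloured by group; letters name the GF aCD3 libraries and the GF isotype library F2. The 6 SPF aCD3 libraries lie at the upper left, and GF aCD3 M1, M2 and M5, with 10.7 to 12.3 TPM of Slc39a6, lie below them with 13.0 to 17.7 TPM of Mt1.

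Slc39a10 (chromosome 1, 46807544 to 46853618, minus strand), which encodes the importer ZIP10, varied little. It was 5.61, 7.84, 5.46, 6.78, 6.31 and 6.35 TPM in SPF isotype F1 to F3 and M1 to M3, and 5.27, 6.22, 5.81, 5.46, 3.95 and 5.51 TPM in SPF aCD3. The groups overlapped. The log2 difference was -0.22 (SE 0.11), and its sign turned under median of ratios, where it was 0.15, and under quantile normalization, where it was also 0.15. In GF aCD3 F1 and M1 to M5 it was 8.08, 6.02, 6.0, 7.94, 8.33 and 6.23 TPM, within the 5.96 to 8.49 TPM of GF isotype, and the log2 difference was 0.03 (SE 0.10, limma adjusted p = 0.828), or 0.18 after median of ratios and -0.01 without GF aCD3 M4.

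Mtf1 (chromosome 4, 124802549 to 124849800, plus strand), the zinc sensor, was not higher where its reported targets Mt1 and Mt2 were. SPF isotype F1 to F3 and M1 to M3 had 5.48, 5.05, 4.41, 5.14, 5.08 and 5.63 TPM, and SPF aCD3 3.59, 4.19, 3.98, 4.32, 2.72 and 3.57 TPM. The groups did not overlap, as for 41.9% of all genes. The log2 difference of -0.38 (SE 0.11) was close to that of the median gene and shrank to -0.04 after median of ratios. In GF aCD3 F1 and M1 to M5 it was 5.86, 3.45, 4.40, 6.89, 5.57 and 4.03 TPM, against 4.94 to 6.27 TPM in GF isotype, with a log2 difference of -0.18 (SE 0.10, limma adjusted p = 0.199), or -0.04 after median of ratios. Without 1 library it ran from -0.26, without GF aCD3 M3, where it passed (adjusted p = 0.0350), to -0.10, without M1.

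**Figure D3:**
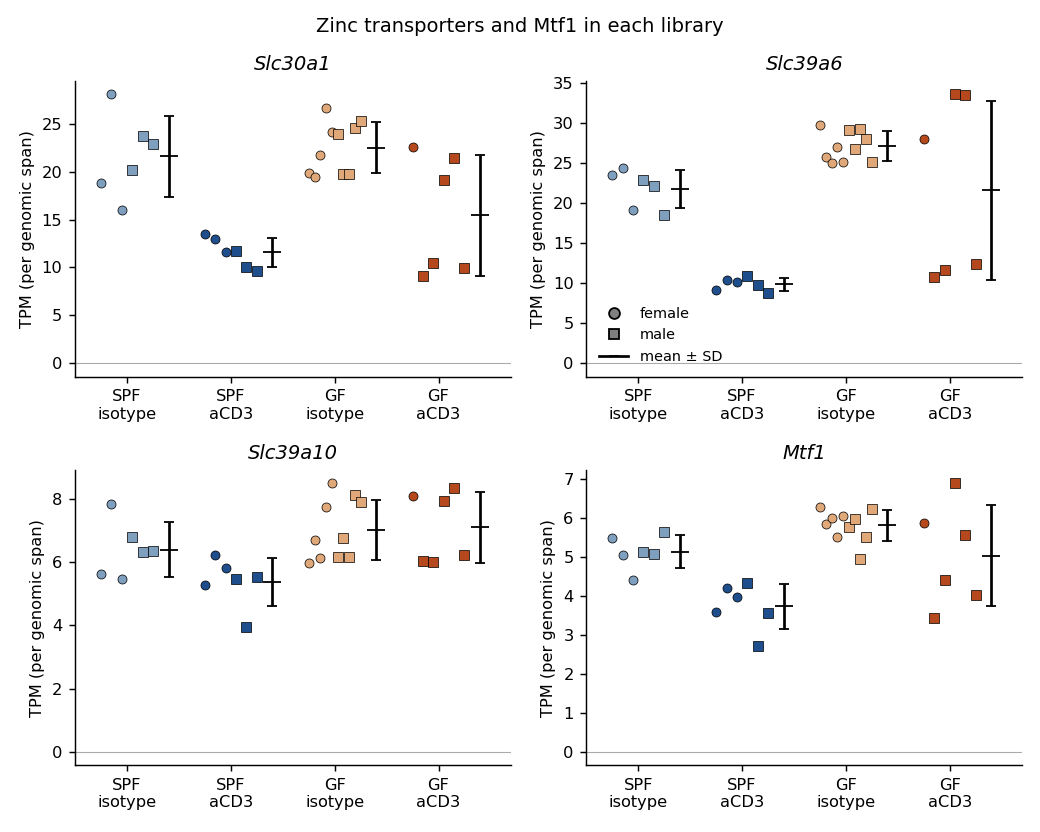
TPM of Slc30a1, Slc39a6, Slc39a10 and Mtf1 in each library by group, with the mean and SD at the right of each group; circles are female and squares male. In the GF aCD3 group Slc39a6 ranged from 10.7 to 33.5 TPM, wider than the 25.02 to 29.7 TPM of the GF isotype group.

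Between the aCD3 groups, GF minus SPF, the log2 differences were 0.34 (SE 0.18) for Slc30a1, 0.93 (SE 0.21) for Slc39a6, 0.36 (SE 0.11) for Slc39a10 and 0.36 (SE 0.11) for Mtf1. After median of ratios they were -0.04, 0.54, 0.01 and 0.02, so that those of Slc30a1, Slc39a10 and Mtf1 were of the size of the shift of the median gene, and under quantile normalization all 3 were slightly below 0. Without GF aCD3 F1 the difference of Slc30a1 was 0.19. The aCD3 responses of these 4 genes differed between GF and SPF by 0.27, 0.62, 0.25 and 0.20 in that order, beside 0.20 for the median gene.

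**Figure D4:**
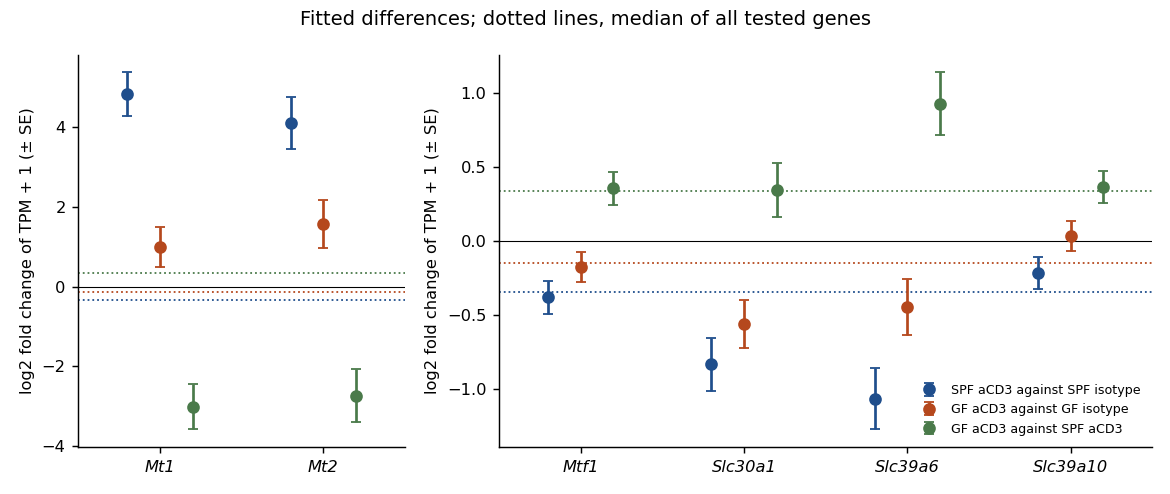
Fitted log2 fold changes of TPM + 1 with their standard errors for the 6 genes in 3 comparisons; dotted lines give the median of all 12182 tested genes in the comparison of that colour. In SPF after aCD3, Mt1 stood at 4.83 and Mt2 at 4.11, while Slc30a1 and Slc39a6 stood below the median gene at -0.83 and -1.06.

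In control mice, the presence of a flora went with no difference that passed. The SPF isotype libraries were part of a comparison on which Mt1 was chosen, so its test here is not independent of the choice. In GF isotype against SPF isotype 7.17% of genes passed, 6.42% higher and 0.755% lower in GF, and none of the 6 did. The Mt1 log2 difference was 0.82 (SE 0.49, limma adjusted p = 0.302); it was 0.53 without GF isotype F2, and ran from 0.46 without SPF isotype F2 to 1.14 without SPF isotype F1. For Mt2 the ratio of the means, 2.20, and the fitted difference, -0.20 (SE 0.59, adjusted p = 0.852), had opposite signs, since the GF mean rests on F2 and F3; the fitted value ran from -0.60 without GF isotype F2 to 0.03 without SPF isotype M3. Slc39a6 was 25.02 to 29.7 TPM in the 10 GF libraries and 18.4 to 24.4 TPM in the 6 SPF libraries, without overlap, which 2.63% of genes showed. Its log2 difference of 0.31 (SE 0.18) did not pass over all groups (adjusted p = 0.296), did in a fit of these 2 groups alone (adjusted p = 0.0110), and was 0.16 after median of ratios (adjusted p = 0.709). Sums of stromal markers also did not overlap, at 0.384 to 2.82 TPM in GF and 4.42 to 42.05 TPM in SPF controls. Medians of the B and plasma cell sum were 33.8 and 180 TPM, and those of the erythroid sum 1.64 and 7.41 TPM. CD8, myeloid, endothelial and acinar medians were also lower in GF, at 2.9, 0.9255, 8.024 and 2.135 against 8.114, 2.878, 9.578 and 2.501 TPM. Epithelial, Paneth and T cell medians were higher in GF, at 22.73, 3.603 and 2053 against 14.35, 1.494 and 1906 TPM. The part of other cells in this comparison was not tested. Differences of Mtf1, Slc30a1 and Slc39a10 were 0.15, 0.07 and 0.11 (adjusted p = 0.335, 0.806 and 0.470), and without SPF isotype F3 that of Slc30a1 was -0.03. In a further comparison within GF isotype, libraries numbered 48 to 51 had more Slc39a10 and Slc30a1 than those numbered 25 to 30. The log2 differences were 0.31 and 0.27 (limma adjusted p = 0.0148 and 0.0420), and 1250 of all 12182 genes passed.

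No sex difference was found in the 6 genes. Male against female log2 differences lay between -0.20 for Mt1 and -0.06 for Slc39a10 (limma adjusted p = 1.00 for each), and 0.107% of all genes passed. The signs rest on single libraries for 3 genes: without GF isotype F2 the Mt1 and Mt2 differences were 0.03 and 0.18, and without GF aCD3 F1 that of Slc39a6 was 0.0037.

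The other zinc genes were counted from a list of 24: 2 metallothioneins, 10 exporters of the Slc30a kind and 12 importers of the Slc39a kind. This list and those that follow were drawn up by known role, but with earlier results of these data known, so their p-values, adjusted over all genes, are not independent evidence. Levels sufficed to test 14, but Mt3, a metallothionein best known from brain, reached 1 TPM in only 5 libraries outside SPF aCD3 and so passed the filter only through that group. Its comparisons with SPF aCD3 are therefore a description, and it is left out of the counts that involve that group. In SPF after aCD3, 7 of the other 13 passed, 2 higher and 5 lower, beside 64.8% of all genes. Mt3 was 6.95, 7.37, 8.31, 2.13, 3.85 and 4.06 TPM in SPF aCD3 F1 to F3 and M1 to M3. In SPF isotype it was listed at 0 in 5 of 6 libraries and rested on 2 counts in the other. Every SPF aCD3 library was thus above the controls, and the fitted log2 difference was 2.46 (SE 0.39). Slc30a4, which encodes the vesicular zinc transporter ZnT4, rose by 0.68 (limma adjusted p = 0.00405), or by 1.05 after median of ratios. Slc39a1, which encodes the plasma membrane importer ZIP1, rose by 0.73 (adjusted p = 0.000150), or by 1.14 after that scaling, from 15.9 ± 1.75 to 27.2 ± 4.09 TPM (SD, n = 6 each).

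The 5 zinc genes that fell were Slc30a5 and Slc30a7, which load zinc into the secretory pathway, Slc30a9, a mitochondrial zinc transporter, and Slc39a3 and Slc39a13, importers into the cytosol. Their log2 differences were -0.46, -0.52, -0.26, -0.50 and -0.54 (limma adjusted p from 0.000303 to 0.0309). These falls were near the shift of the median gene: after median of ratios they were -0.08, -0.17, 0.09, -0.14 and -0.19, the sign of Slc30a9 turned (its call was also lost in 7 of 28 fits without 1 library), and the 13 genes counted 5 higher and 0 lower. Mt3, Slc30a4 and Slc39a1 kept their direction under each scaling tried.

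In GF after aCD3, 0 of the 14 zinc genes passed limma's test, beside 7.08% of all genes, and after median of ratios 1 did, Slc30a4; without Rn45s and histone genes 2 did, Slc30a4 and Slc39a7, all of them higher. Mt3 was 0, 1.90, 3.09, 0, 0 and 3.47 TPM in GF aCD3 F1 and M1 to M5, so the libraries with Mt3 were M1, M2 and M5, and its log2 difference was 0.52 (SE 0.36, adjusted p = 0.285). As a description, its response differed by -1.94 (SE 0.53) on the log2 scale, GF minus SPF, and its level between the aCD3 groups by -1.65 (SE 0.40). Mt3 lies beside Mt1 and Mt2 on chromosome 8, at 94152607 to 94154148, and shared 0 stretches of 31 bases with either. Mt4, the other gene of the cluster, was listed at 0 in all 28 libraries. Of the other 13 zinc genes, 8 passed between the aCD3 groups, 7 higher and 1 lower in GF, beside 53.3% of all genes (48.9% and 4.46%); after median of ratios 1 was higher, Slc30a7, and 2 were lower, Slc30a4 and Slc39a1. The highest differences were those of Slc30a7, Slc39a3, Slc30a5, Slc39a13 and Slc39a9, at 0.65, 0.55, 0.51, 0.48 and 0.31, which were 0.31, 0.19, 0.14, 0.14 and -0.06 after median of ratios, and the lower gene was Slc30a4 at -0.66, or -1.01 (limma adjusted p from 0.000736 to 0.0240 before that scaling). The Slc39a13 call was lost in 3 of 28 fits without 1 library. In control mice 0 of 14 passed limma's test, beside 7.17% of all genes, and 3 passed without Rn45s and histone genes, Slc30a5, Slc39a4 and Slc39a9, each higher in GF.

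Of 7 further genes that have been reported as MTF1 targets, 4 could be tested, and all 4 passed in SPF after aCD3, 2 higher and 2 lower, beside 64.8% of all genes. Ndrg1, a stress-induced gene, rose by 1.00 and Csrp1, which encodes a zinc-binding LIM protein, by 0.71 (limma adjusted p = 3.54e-05 and 0.00227), the latter by 1.12 after median of ratios. Gclc, the catalytic subunit that begins glutathione synthesis, fell by 1.11 (adjusted p = 1.12e-05). Selenow, a selenoprotein, differed by -0.34 (adjusted p = 0.00783), but by 0.08 after median of ratios. In GF none of the 4 passed limma's test. Before median of ratios their differences were 0.32, 0.38, -0.48 and -0.06 (limma adjusted p = 0.149, 0.127, 0.0561 and 0.655), so a small value such as that of Selenow has no sure sign.

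**Figure D5:**
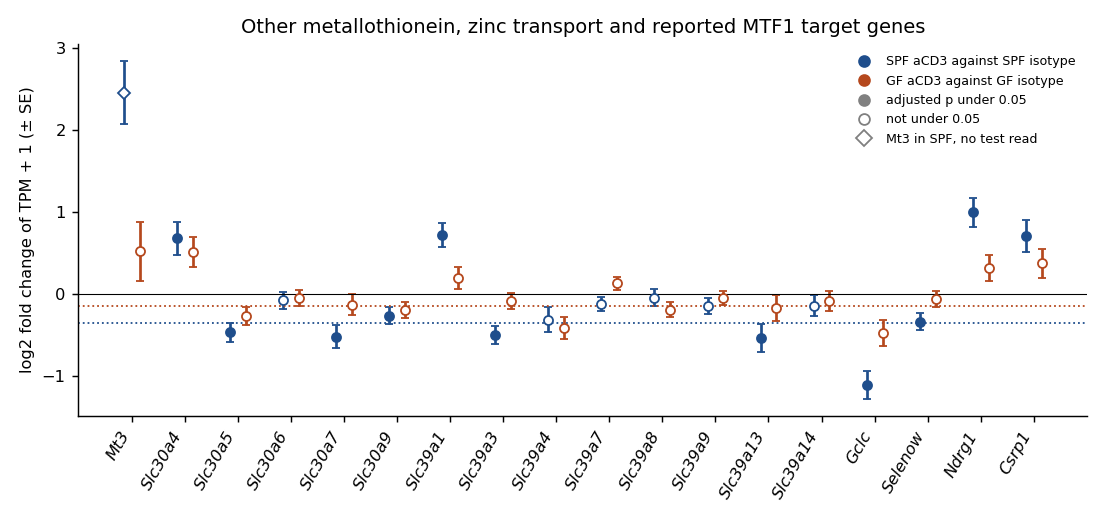
Fitted log2 fold changes of TPM + 1 with standard errors for the tested genes of the zinc lists and the reported MTF1 targets after aCD3, in SPF and in GF; filled points passed an adjusted p of 0.05, the diamond is Mt3 in SPF, for which no test is read, and dotted lines are the median of all tested genes. Mt3 lies at 2.46 in SPF, and no GF point is filled.

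Copper, iron, redox and glucocorticoid genes were counted because metallothioneins also bind copper and because oxidants and glucocorticoids can raise metallothionein transcription. Over all metal-related lists, and with Mt3 left out, 32 of 50 tested genes passed in SPF after aCD3, 11 higher and 21 lower, beside 64.8% of all genes (14.2% and 50.7%). After median of ratios 23 were higher and 11 lower. Tfrc, the transferrin receptor through which iron is taken up, rose by 1.17 (limma adjusted p = 0.000233), and Fth1, a ferritin chain that stores iron, fell by 0.90 (adjusted p = 3.24e-05), or by 0.48 after median of ratios. Among 10 genes of the NRF2 oxidative stress response, Srxn1, Prdx1, Txn1 and Gsr rose, by 1.67, 0.59, 0.52 and 0.39, and Nfe2l2, which encodes NRF2 itself, Gclc and Gclm fell, by 1.37, 1.11 and 0.39. After median of ratios Prdx1, Txn1 and Gsr were at 1.01, 0.94 and 0.77, and Gclm at -0.07, where it no longer passed (limma adjusted p = 0.477). Hmox1, Keap1 and Txnrd1 were then also called higher, so that this list counted 7 higher and 2 lower. Of 7 genes of the glucocorticoid response, 6 were lower and 0 higher, beside 50.7% of all genes lower. After median of ratios 5 were lower and 1, Fkbp5, was higher; Sgk1 no longer passed, and its call was also lost in 3 of 28 fits without 1 library. The receptor gene Nr3c1 went from 94.5 ± 18.5 to 16.8 ± 2.22 TPM (SD, n = 6 each), a log2 difference of -2.41 (adjusted p = 1.40e-06), and Tsc22d3, a gene induced by glucocorticoids, differed by -1.71 (adjusted p = 9.70e-07). Per1, a clock gene that glucocorticoids also induce, differed by -1.10 (adjusted p = 0.000263), or by -0.68 after median of ratios.

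In GF after aCD3, 7 of the 51 genes passed, 2 higher and 5 lower, beside 7.08% of all genes (2.46% and 4.61%). Srxn1 and Prdx1, enzymes that handle peroxides, rose by 0.90 and 0.31 (limma adjusted p = 0.0499 and 0.0481). Sod1, Fth1, Tsc22d3, Klf9 and Sgk1 fell by 0.32, 0.47, 0.62, 0.46 and 0.73 (adjusted p from 0.0481 to 0.0490). After median of ratios Prdx1 was at 0.48 and Sod1, Fth1 and Klf9 at -0.15, -0.30 and -0.30, and Sod1, Tsc22d3 and Klf9 no longer passed (adjusted p = 0.0830, 0.0558 and 0.0695). The counts were 3 higher and 2 lower with that scaling, and 4 higher and 0 lower without Rn45s and histone genes. All 7 calls were held in 3 of 28 fits that left out 1 library each, those without GF aCD3 F1, M3 or M4, and lost in the other 25, so the count ran from 0 to 18. The responses differed between GF and SPF for 3 of the 50 genes other than Mt3, beside 3.48% of all genes: Nr3c1, Tsc22d3 and Sod1, at 1.74, 1.09 and 0.53, GF minus SPF (adjusted p = 0.0232, 0.0304 and 0.0379). All 3 had negative differences after aCD3 in both groups, less negative in GF: -2.41 in SPF and -0.68 in GF for Nr3c1, where the GF value did not pass (adjusted p = 0.0843), -1.71 and -0.62 for Tsc22d3, and -0.85 and -0.32 for Sod1. For Tsc22d3 the control groups also differed, by -0.57 in GF against SPF isotype (adjusted p = 0.0480), and the aCD3 groups by 0.52 (adjusted p = 0.0328), or by 0.11 after median of ratios. The 3 calls were 3 higher and 0 lower, but the counts were 5 and 5 with median of ratios, 3 and 3 with quantile normalization, 4 and 3 without Rn45s and histone genes, and 6 and 6 with voom and median of ratios. The difference of Sod1 was 0.28 after median of ratios. Leaving out 1 library at a time, Nr3c1 kept its call in 26 of 28 fits, Tsc22d3 in 20 and Sod1 in 13.

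Between the aCD3 groups 27 of the 50 genes passed, 24 higher and 3 lower in GF, beside 53.3% of all genes, and 6 higher and 13 lower after median of ratios. Among those with a mean of at least 5 TPM in either group, the highest were Nr3c1 at 1.97, Nfe2l2 at 0.81, Gclc at 0.70, Slc30a7 as given, and Slc31a2, a gene of copper handling, at 0.64; after median of ratios Nr3c1, Nfe2l2, Gclc and Slc31a2 were at 1.57, 0.42, 0.35 and 0.29. Besides Slc30a4, those lower in GF were Ndrg1 at -0.60 and Prdx1 at -0.23, or -0.93 and -0.64 with that scaling. Without 1 library the call of Prdx1 was lost in 6 of 28 fits, that of Tsc22d3 in 7 and that of Slc31a2 in 1. In control mice 5 of 51 passed, beside 7.17% of all genes. Zbtb16, Txnrd1, Aco1 and Ireb2 were higher in GF by 0.77, 0.52, 0.39 and 0.32 on the log2 scale (limma adjusted p = 0.0304, 0.0135, 0.00479 and 0.0334), and Tsc22d3 was lower, as given. Zbtb16 encodes the transcription factor PLZF, Txnrd1 a thioredoxin reductase, and Aco1 and Ireb2 the iron regulatory proteins. After median of ratios Ireb2 was at 0.17, and it and Zbtb16 no longer passed (adjusted p = 0.188 and 0.0929). The Tsc22d3 call was kept in 9 of 28 fits without 1 library, that of Ireb2 in 20, of Zbtb16 in 23, of Txnrd1 in 27 and of Aco1 in 28.

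The genes whose pattern over the 28 libraries was most like that of Mt1 were sought by the smallest root mean square difference of centred log2(TPM + 1) among 10402 genes other than the 6, and among the 6. Mt2 was nearest, at 0.952, where Mt1 itself varied by 1.96. Beyond it came Ermn, Birc5, Hist1h2bb, Cdca3 and Perp, at 1.01 to 1.04, so the fit of even the nearest genes was loose. Birc5 and Cdca3 act in cell division. For Mt2, which varied by 2.00, Mt1 was nearest, and of the other genes Havcr2, Perp, Ermn, Neb and Csf1, came next, at 1.04 to 1.13; Havcr2 encodes the inhibitory receptor TIM-3. Slc39a6, which varied by 0.610, was nearest to Rc3h2, Ppp1r12a, Brd1, Ppp1r13b and Rheb, at 0.162 to 0.165. Slc39a10, which varied by only 0.213, was nearest to Ywhag, Adam10, Copg1, Stx12 and Ankfy1, at 0.102 to 0.114, so its small distances go with its small variation. Each value runs over all 28 libraries, and the genes of a library share its depth and composition, so these are descriptions.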

How the data were processed

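The deposited table gives TPM for 25124 genes, which the authors computed, per the file headers, with HOMER's analyzeRepeats.pl on the mouse build mm10 with the transcripts of a gene condensed. The aligner's version, read filters and strand setting were not given in the sources used here; 1 label names polyA RNA, while the design text names a total RNA kit. A further 26 TPM columns matched no sample here and were not used.

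TPM times gene length fell on whole multiples of 1 step in 100% of the low values checked in each library (tolerance 0.1), which gave recovered counts; the count test on these is an alternative. Counting limits of 3 counts cover counting error only, as there are no molecular identifiers. The test covered the 12182 genes that reached 1 TPM in 6 libraries or more, the 6 described among them. Log2(TPM + 1) values of all 28 libraries were fitted with group means and sex in limma 3.58.1 under R 4.3.3, using its trended empirical Bayes moderation, with Benjamini-Hochberg adjustment over all genes of each of the 6 comparisons and a threshold of 0.05. The fit was tested on simulated data for the SPF response only, with changes planted in well-counted genes. Calls in GF and low counts such as those of Mt1 were not covered by that. Other steps used Python 3.11.15. Whether replicates are separate animals is not stated, so p-values measure the spread between these samples.

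The 6 genes and the gene lists were chosen with earlier results of these data known. All 6 are reported in each comparison; list genes are named where a count is 5 or fewer, and otherwise, over the lists of a comparison, up to 5 highest and 5 lowest past the threshold with a mean of 5 TPM in either group; further list genes, such as Fth1, Txn1, Gsr and Gclm, were named after their values were seen. Alternatives changed the pseudocount, filter, scaling, sex term, groups fitted, replicate block, sample-number run and each library; voom with median of ratios was added after seeing the data.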

Additional observations from a re-analysis of the deposited data

Results flagged for a closer look

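GF isotype F2 stood apart from the other 9 libraries of its group for both metallothioneins, with 31.2 TPM of Mt1 and 21.0 TPM of Mt2; the gaps to the next library were 0.825 and 0.687 of the group's range. SPF isotype M3 stood apart for Mt2 with 3.43 TPM, a gap of 0.640 of the range, which rests on few counts. These are 3 of 24 sets of a gene and a group that were examined. Chance alone gives about 1 in 20 for normally distributed values. These TPM, with values at 0 among them, are not, so the rate here is not known.

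The response to aCD3 differed between GF and SPF mice for Mt1, by -3.84 on the log2 scale, GF minus SPF; since Mt1 was chosen on its SPF response and on its level between the aCD3 groups, from which this difference is built in part, that is a description. For Mt3, which passed the filter only through SPF aCD3, the value of -1.94 is a description too. The difference itself was tested for the other list genes, which were chosen by role with earlier results known, and passed for Tsc22d3 at 1.09 (limma adjusted p = 0.0304), Nr3c1 at 1.74 (adjusted p = 0.0232) and Sod1 at 0.53 (adjusted p = 0.0379). The 3 tested genes had negative differences after aCD3 in both groups, less negative in GF, and Tsc22d3 also differed between the controls, by -0.57.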

How the results depend on the processing

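The direction of Mt1 and Mt2 in SPF after aCD3, between the aCD3 groups and in the difference of responses was the same under each alternative run. The size of the Mt1 difference in SPF was 6.12 with a pseudocount of 0.1, 3.56 with 5, 5.98 with voom on recovered counts and 6.03 with voom and median of ratios; the difference of responses was -4.95 with a pseudocount of 0.1. Between the aCD3 groups Mtf1 and Slc39a10 turned to -0.024 and -0.014 under quantile normalization, and Slc39a10 to -0.000735 with voom and median of ratios.

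The count of genes passing in GF after aCD3, 862, was unstable: 0 with a pseudocount of 0.1, without the filter and with only the GF groups, 3636 with array weights, 2472 without the sex term, 2215 with the sample-number run as a covariate, 1 in each run alone, and 0 to 4213 without 1 library. The metal list count, 7, was 0 with a pseudocount of 0.1, without the filter, with only the GF groups and in each run alone, 4 without Rn45s and histone genes, 3 with voom, 2 with voom and median of ratios, 16 with array weights, 12 without the sex term or with the run, and 0 to 18 without 1 library.

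For GF against SPF isotype, 874 genes became 199 with median of ratios, 178 with quantile normalization, 1467 without Rn45s and histone genes, 375 with voom, 228 with voom and median of ratios, 1904 with array weights, 1812 with only these groups, and 325 to 1137 without 1 library. The metal list count, 5, was 3 with a TPM of at least 5, median of ratios, voom and median of ratios or no sex term, 2 with quantile normalization, 8 without Rn45s and histone genes or with only these groups, 9 with array weights, and 1 to 6 without 1 library. Between the aCD3 groups 6496 genes became 3986, 3348 and 3680 with median of ratios, quantile normalization and array weights. The metal list count there, 28 with Mt3 included, became 14 with array weights.

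For the difference of responses, 424 genes became 774 and 273 with pseudocounts of 0.1 and 5, 233 without the filter, 1423 with median of ratios, 791 with quantile normalization, 908 without Rn45s and histone genes, 1631 with voom, 1839 with voom and median of ratios, 159 with array weights, and 32 to 3187 without 1 library. The metal list count, 4 with Mt3 included, became 2 without the filter, 11, 7 and 8 under the same 3 scalings, 13 with either voom, 1 with array weights, and 0 to 14 without 1 library. The cause of these moves was not tested.

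Shared replicate numbers were checked for pairing after group means and the sex effect were taken out. In 0 of 6 pairs of groups did every same-numbered pair correlate above 0.1, and the range was -0.30 to 0.20. With 4 to 6 same-numbered pairs in each, this cannot settle whether the samples were paired. With the replicate block, 0 genes and 0 metal list genes passed in GF after aCD3, Slc30a1 had an adjusted p of 0.0671, and 162 genes and 2 metal list genes passed for the difference of responses. The level of Mt1 and Mt2 outside SPF aCD3 rests on few recovered counts, which limits how small a response could be seen.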
